A study of Mus musculus with 4 samples.

Results

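Fasted crypts held more transcript of Zbtb16 (29.8-fold without tetracycline), Fkbp5 (6.27-fold) and Ddit4 (2.11-fold), genes that glucocorticoids are known to induce, while transcript of the glucocorticoid receptor gene itself, Nr3c1, was not called, with log2 changes of 0.02 and -0.33. These 3 genes were called higher in fasted mice both without and with tetracycline. The set described here has 9 genes, taken by symbol from the 24182 genes listed in both of the authors' deposited tables: the receptor gene Nr3c1, the steroid dehydrogenase genes Hsd11b1 and Hsd11b2, and the glucocorticoid-inducible genes Zbtb16, Fkbp5, Ddit4, Sgk1, Tsc22d3 and Klf9. All 9 were found in both tables, and all 9 carried an adjusted p in each. The set was chosen by symbol from the fasting changes of these data, the log2 fold changes and adjusted p-values given here, so those values are a description and its calls are no independent evidence.

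RNA came from small-intestinal crypts, the pits of the gut lining that hold its stem cells, of C57BL/6J males, 9 weeks of age. The 4 groups, with 1 labelled sample each, were fed mice without tetracycline, mice fasted for 24 hours without it, fed mice given this antibiotic for 21 days, and fasted mice given it for 21 days. The study asked how loss under tetracycline of what its labels call AKK alters expression in fed against fasted mice. Nothing in the labels says how many animals stand behind a sample.

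Each table compares fasted with fed mice at 1 tetracycline state. Whole counts recovered from the deposited means gave 4 libraries per comparison, of which 2 were fasted and 2 were fed, and these cannot be tied to the labelled samples. Nothing says that they came from separate animals, so p-values measure only the spread between these libraries, which may be technical. A normalized count below is a library's count divided by its size factor, and of the 2 libraries on a side the one numbered 1 has the higher size factor. Size factors spanned a ratio of 1.17 among the libraries without and 1.75 among those with tetracycline. A gene was called where the authors' adjusted p was under 0.05, and a log2 change is fasted over fed, a direction that no column states and that was taken from how the tables are named. The 2 tables were scaled separately. The library kit does not keep the strand, so reads of a gene and of an antisense or overlapping gene cannot be told apart. Epithelial transcripts were abundant, with an authors' mean of 83703 normalized counts for Epcam, an epithelial adhesion molecule, without tetracycline and 68782.5 with it, and 0 of 8 epithelial markers were called in either of the authors' deposited tables. With 2.27% and 0.600% of all tested genes called there, 0 of 8 does not show a steady epithelium.

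Glucocorticoids are steroid hormones that the adrenal gland releases in stress and fasting, and the gut lining can also make them. They enter the cell and bind the glucocorticoid receptor, which then moves to the nucleus, binds a palindromic DNA motif called the glucocorticoid response element, and raises or lowers transcription nearby. Inside the cell, 11-beta-hydroxysteroid dehydrogenase type 1, made from Hsd11b1, regenerates active hormone, and the type 2 enzyme, made from Hsd11b2, inactivates it.

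The receptor gene is described before its targets; gene positions are those of GENCODE M21 (GRCm38). Nr3c1 (ENSMUSG00000024431.16, chr18:39410545-39519421, minus strand) had 9805 and 8277 normalized counts in the fasted and 9480.4 and 8299 in the fed libraries without tetracycline. With tetracycline it had 7117 and 9621 in the fasted and 9441 and 11568 in the fed libraries. Fasted and fed libraries overlapped at both tetracycline states. The authors' deposited tables gave Nr3c1 a log2 change of 0.02 (SE 0.26, 95% interval -0.48 to 0.53, adjusted p 0.993) without and -0.33 (SE 0.39, interval -1.10 to 0.44, adjusted p 0.9999) with tetracycline. A p that misses the threshold does not show that the level was the same.

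The 2 dehydrogenase genes stood at very different levels. Per kilobase of exon, the mean normalized count of Hsd11b2 in fed mice was 429 without and 344 with tetracycline, and that of Hsd11b1 was 11.4 and 23.2. Hsd11b2 (ENSMUSG00000031891.7, chr8:105518755-105523988, plus strand), the inactivating enzyme, had 859 and 1382 normalized counts in the fasted and 806 and 772 in the fed libraries without tetracycline. With tetracycline it had 1844 and 1363 in the fasted and 508 and 759 in the fed libraries. Both fasted libraries lay above both fed libraries in each table, by little in the first and more clearly in the second. In the authors' deposited tables the log2 change of Hsd11b2 was 0.51 (SE 0.32, adjusted p 0.629) without and 1.34 (SE 0.44, adjusted p 0.204) with tetracycline, and it was not called in either. Without fasted library 2 the log2 ratio in the first table was 0.12, so that 1 library carried most of the difference there.

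Hsd11b1 (ENSMUSG00000016194.15, chr1:193221634-193264075, minus strand), the regenerating enzyme, was read at low depth. It had 11 and 17 counts in the fasted and 34 and 63 in the fed libraries without tetracycline, and 71 and 7 in the fasted and 196 and 40 in the fed libraries with it. As normalized counts these were 10.1 and 18.3 against 33.7 and 63.3, and 58.4 and 9.63 against 154 and 43.1. Both fasted libraries were below both fed libraries without tetracycline, and the sides overlapped with it. The authors' deposited tables gave log2 changes of -1.78 (SE 0.75, adjusted p 0.274) and -1.52 (SE 0.98, adjusted p 0.9999), neither of them called. With tetracycline the log2 ratio was -3.36 without fasted library 1 and -0.34 without fed library 1.

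Summed markers of other cell types were set beside Hsd11b1. Summed over 6 of 6 stroma markers (collagens, Dcn and the platelet-derived growth factor receptors), the normalized counts were 324 and 497 in the fasted and 631 and 1730.0 in the fed libraries without tetracycline. With tetracycline they were 638 and 367 in the fasted and 682 and 480.0 in the fed libraries. The order of the libraries by the stroma sum was the order by Hsd11b1 in both tables, and so was the order by the T lymphocyte and by the B lymphocyte sums. The endothelial sum did not follow it without tetracycline, at 201 and 330.2 in the fasted and 303 and 336 in the fed libraries. With tetracycline the endothelial sum did follow the order of Hsd11b1, at 404 and 102 in the fasted and 713 and 290 in the fed libraries. With tetracycline the stroma order rested on Dcn, which made up 290 of the sum in fasted library 1 and 76.6 in fed library 2. The sum over 5 of 5 myeloid markers was 996 and 1355 in the fasted and 1877 and 3124 in the fed libraries without tetracycline, again in the order of Hsd11b1. With tetracycline the myeloid sum was 1723 and 515 in the fasted and 5008 and 2270.4 in the fed libraries, with fasted library 1 and fed library 2 in the other order. None of these markers was at 0 in any library. Without tetracycline the authors' deposited table called 3 of 6 stroma markers (Col1a1, Col1a2 and Col3a1), 1 of 5 myeloid markers (Lyz2), 5 of 5 B lymphocyte markers and the haemoglobin gene Hba-a1 lower in fasted mice. With tetracycline the authors' table called 0 genes of these lists. Of all tested genes 1.22% without and 0.267% with tetracycline were called lower, so 0 calls in short lists say little. With tetracycline the median log2 change was -1.82 for B lymphocyte, -1.61 for myeloid and -0.24 for stroma markers. Without it the medians were -1.96, -1.09 and -1.85. In such bulk samples fewer cells of a type and less RNA per cell cannot be told apart, and the part of these cells in the values of Hsd11b1 was not tested.

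Of the 6 inducible genes, 3 were called higher in fasted mice without tetracycline (Zbtb16, Fkbp5 and Ddit4) and 0 were called lower. In that deposited table of the authors, 2.27% of 18100 tested genes were called, 1.06% upward and 1.22% downward. The same 3 genes were called higher in the authors' deposited table for mice with tetracycline, where 0.600% of 17993 tested genes were called, 0.333% upward and 0.267% downward. In all, 0.250% of the 17571 genes tested in both tables were called higher in both.

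**Figure D1:**
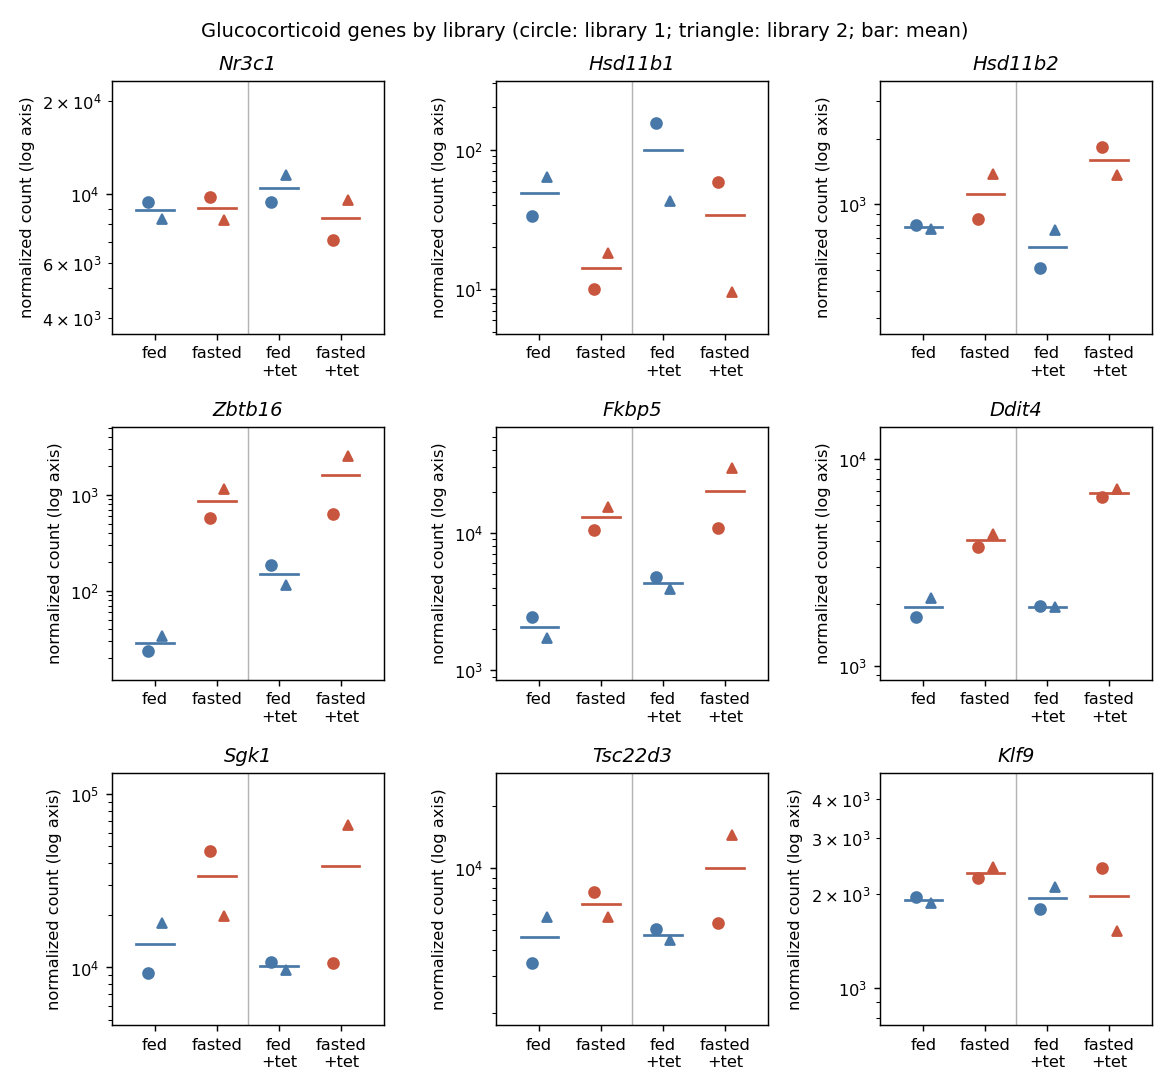
Normalized count (log axis) of the 9 genes in each of the 8 libraries, in fed (blue) and fasted (red) mice without and with tetracycline (+tet); circles are library 1, triangles library 2, bars the mean of 2 libraries. Zbtb16, Fkbp5 and Ddit4 separate fed from fasted libraries in both tables, Nr3c1 overlaps in both, and Sgk1 with tetracycline is high in 1 fasted library (66659.5) only.

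Zbtb16 (ENSMUSG00000066687.6, chr9:48654297-48836222, minus strand) encodes PLZF, a zinc finger transcription factor and one of the most strongly glucocorticoid-induced genes in many tissues. It had 579 and 1147 normalized counts in the fasted and 23.8 and 34.2 in the fed libraries without tetracycline. With tetracycline it had 629 and 2563 in the fasted and 186 and 114 in the fed libraries. Every fasted library was above every fed library, and the fed libraries with tetracycline were above those without it. The authors' deposited tables gave Zbtb16 log2 changes of 4.90 (SE 0.43, adjusted p 2.7e-26), a 29.8-fold rise, and 3.41 (SE 0.69, adjusted p 0.000339), a 10.6-fold rise. By p it ranked 6 without and 35 with tetracycline among all genes of its table. With tetracycline the 2 fasted libraries differed 4.07-fold, and the log2 ratio was 2.07 without fasted library 2.

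Zbtb16 is also a known factor of innate-like T lymphocytes, so T lymphocyte transcripts were set beside it. Summed over Cd2, Cd3d and Cd4, the 3 of 7 markers with recovered counts in both tables (the more abundant Cd3e, Cd3g and Cd8a lay, in at least 1 table, above the mean up to which counts were sought), normalized counts were 324 and 717 in the fasted and 877 and 1284 in the fed libraries without tetracycline. With it they were 1204 and 164 in the fasted and 3576 and 846 in the fed libraries. Fasted library 2 with tetracycline, the highest of all for Zbtb16, was the lowest of all for these T lymphocyte transcripts. The part of these cells in the fasting change of Zbtb16 was not tested. The 6 T lymphocyte markers with an adjusted p had a median log2 change of -1.01 without and -1.67 with tetracycline, with 0 called in either of the authors' deposited tables.

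Fkbp5 (ENSMUSG00000024222.18, chr17:28399094-28517527, minus strand) encodes FKBP51, a co-chaperone of the receptor that lowers its affinity for hormone and so takes part in negative feedback. It had 10559 and 15556 normalized counts in the fasted and 2449 and 1714 in the fed libraries without tetracycline, and 10926 and 29569 in the fasted and 4804 and 3888 in the fed libraries with it. The fasted libraries were above the fed ones in both tables. In the authors' deposited tables Fkbp5 rose by 2.65 on the log2 scale (SE 0.31, adjusted p 2.03e-14) without and 2.22 (SE 0.55, adjusted p 0.0147) with tetracycline, which are 6.27-fold and 4.66-fold. Without fasted library 2 the log2 ratio with tetracycline was 1.33.

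Ddit4 (ENSMUSG00000020108.5, chr10:59949669-59951834, minus strand) encodes REDD1, an inhibitor of the growth-promoting kinase complex mTORC1. It had 3749 and 4359.8 normalized counts in the fasted and 1716 and 2134 in the fed libraries without tetracycline, and 6526 and 7161 in the fasted and 1943 and 1924 in the fed libraries with it. The 2 libraries of a side lay closer together for Ddit4 than for Zbtb16 or Fkbp5, at most 1.24-fold apart. In the authors' deposited tables its log2 change was 1.07 (SE 0.27, adjusted p 0.00532) without and 1.82 (SE 0.35, adjusted p 0.000142) with tetracycline, rises of 2.11-fold and 3.54-fold. Leaving out any 1 library gave log2 ratios of 0.93 to 1.24 without and 1.75 to 1.89 with tetracycline.

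The other inducible genes were not called. Sgk1 (ENSMUSG00000019970.16, chr10:21882184-21999903, plus strand) encodes a kinase that promotes sodium uptake across epithelia. It had 47214 and 19907 normalized counts in the fasted and 9261 and 18147 in the fed libraries without tetracycline. With tetracycline it had 10683 and 66659.5 in the fasted and 10729 and 9724 in the fed libraries. The fasted libraries lay above the fed ones in the first table, whereas in the second fasted library 1 lay between the fed libraries and only fasted library 2 was high. The authors' deposited tables gave Sgk1 log2 changes of 1.29 (SE 0.42, adjusted p 0.0798) and 1.92 (SE 0.74, adjusted p 0.532). Without fasted library 1 the log2 ratio without tetracycline was 0.54. Without fasted library 2 the log2 ratio with tetracycline was 0.06, so the difference there rested on 1 library. The counts of Sgk1 are the least certain of the set: 1785 and 1343 sets of whole counts fitted its means, of which 1 in each table also gave the deposited fold change.

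Tsc22d3 (ENSMUSG00000031431.14, chrX:140539528-140600659, minus strand) encodes GILZ, a leucine zipper protein that carries part of the anti-inflammatory action of glucocorticoids. It had 7670.4 and 5825 normalized counts in the fasted and 3463 and 5815 in the fed libraries without tetracycline, and 5428 and 14582 in the fasted and 5067 and 4484 in the fed libraries with it. The sides did not overlap, but in each table the lower fasted library stood just above the higher fed one, at 5825 against 5815 without tetracycline. The authors' deposited tables gave log2 changes of 0.54 (SE 0.32, adjusted p 0.590) and 1.07 (SE 0.55, adjusted p 0.941). Without fasted library 2 the log2 ratio with tetracycline was 0.18.

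Klf9 (ENSMUSG00000033863.3, chr19:23141226-23168134, plus strand) encodes a Krüppel-like transcription factor whose transcription follows both glucocorticoids and the circadian clock. It had 2235 and 2433 normalized counts in the fasted and 1956 and 1862 in the fed libraries without tetracycline, and 2417 and 1519 in the fasted and 1792 and 2095 in the fed libraries with it. The sides were apart by little in the first table, and in the second the fed libraries lay between the fasted ones. Its log2 change in the authors' deposited tables was 0.29 (SE 0.25, 95% interval -0.21 to 0.79, adjusted p 0.799) and 0.02 (SE 0.43, interval -0.82 to 0.86, adjusted p 0.9999).

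Across the 9 genes without tetracycline, both fasted libraries lay above both fed ones for 7 genes and below for 1. Among 419 sampled genes with a mean of 20 to 200, 27.0% lay above and 21.5% below. With tetracycline both fasted libraries lay above both fed ones for 5 genes and below for 0, against 18.0% above and 15.6% below among 423 sampled genes. These sampled genes are mostly of lower level than the set, of which Hsd11b1 alone has a mean in that range, so the shares are no matched background. The 9 genes are not replicates of a condition, and the set was chosen for its fasting changes.

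**Figure D2:**
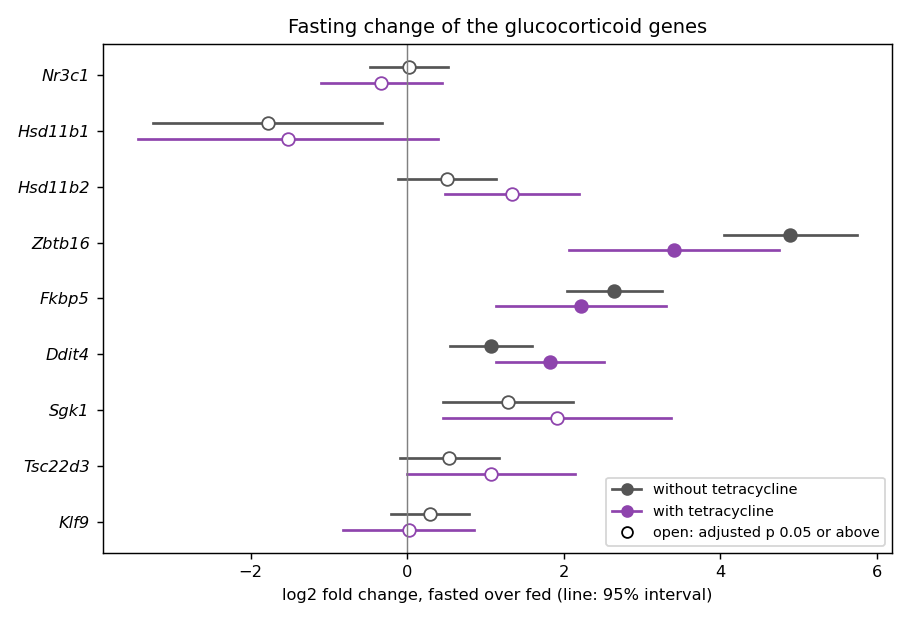
Log2 fold change of fasted over fed mice for the 9 genes in the authors' deposited tables, without (grey) and with (purple) tetracycline; lines are 95% intervals, filled points are called and open points are not. Zbtb16, Fkbp5 and Ddit4 are called in both, and the pairs of intervals overlap for every gene.

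With tetracycline, 1 library stood out within the set. Fasted library 2 was the higher of the 2 fasted libraries for Zbtb16, Fkbp5, Ddit4, Sgk1, Tsc22d3 and Nr3c1, and the lower for Hsd11b1, Hsd11b2 and Klf9. The ratio between the 2 fasted libraries was 6.24 for Sgk1, 4.07 for Zbtb16, 2.71 for Fkbp5 and 2.69 for Tsc22d3, and 1.10 for Ddit4. For Hsd11b1, where fasted library 2 was the lower, it was 6.07. The same library had the smallest size factor of that table, 0.727, and the lowest T lymphocyte, B lymphocyte, myeloid, stroma and endothelial sums. Their part in the values was not tested.

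The fasting responses at the 2 tetracycline states were then compared. A Wald test of the difference (the change with minus the change without tetracycline, its SE combined from both tables) called 0 of the 9 genes, and 0 at an unadjusted p under 0.05. Over all genes it called 4 of 17571, or 0.0228%, after Benjamini-Hochberg adjustment. The share of all genes at an unadjusted p under 0.05 was not counted. Over all genes the statistic had a robust SD (a spread that outliers move little) of 0.714, below the 1 that the test assumes. The unadjusted p-values and intervals given here may therefore be too large and too wide. With the statistic divided by that SD, 0 of the 9 genes were called after adjustment. The most negative difference of the set was that of Zbtb16, at -1.49 (SE 0.81, 95% interval -3.08 to 0.10, unadjusted Wald p 0.0664). The most positive were those of Hsd11b2, at 0.84 (SE 0.54, interval -0.22 to 1.89), and Ddit4, at 0.75 (SE 0.44, interval -0.12 to 1.62). For Fkbp5 the difference was -0.43 (SE 0.63, interval -1.67 to 0.81) and for Sgk1 0.63 (SE 0.86, interval -1.05 to 2.30). The intervals of these 5 genes include 0 and also differences of more than 1 on the log2 scale, so neither a changed nor an unchanged response can be read from them.

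Levels with against without tetracycline can be set side by side only across the separately scaled tables. They were centred on the median gene (a shift of 0.06 in fed and 0.06 in fasted mice, log2) and not tested. In fed mice Zbtb16 was 4.84-fold and Fkbp5 2.002-fold higher with tetracycline, with both libraries above both of those without it. The T lymphocyte sums in fed mice were 3576 and 846 with and 877 and 1284 without tetracycline, and the fed library highest for Zbtb16 (186) was also the highest for these markers; their part in the level of Zbtb16 was not tested. Among all genes Zbtb16 lay at percentile 99.5 and Fkbp5 at percentile 91.2 of this ratio. Hsd11b2 was lower in both fed libraries with tetracycline, with a ratio of 0.770, but its nearest libraries were 759 with and 772 without it. The other 6 genes overlapped. The share of all genes whose libraries separate like this between tetracycline states was not counted, so these separations carry little weight.

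In fasted mice Ddit4 was 1.61-fold higher with tetracycline, with both libraries above both of those without it. The other 8 genes overlapped, with ratios between 0.807 for Klf9 and 2.23 for Hsd11b1. Among all genes Ddit4 lay at percentile 91.9 of this ratio, Zbtb16 at 94.2, Hsd11b1 at 97.3 and Klf9 at 20.9. The share of all genes whose fasted libraries separate like those of Ddit4 was not counted. For Zbtb16 the fed mean thus stood at 29.0 without and 150.1 with tetracycline and the fasted mean at 863 and 1596 normalized counts.

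The promoters of the set were searched for the receptor's motif. RefSeq windows of GRCm38.p6, 250 bases before to 50 after a transcription start, were searched for 6 of the 9 genes. These had 13 windows and were Fkbp5, Tsc22d3, Sgk1, Klf9, Ddit4 and Hsd11b1. Zbtb16 and Hsd11b2 had no window, and Nr3c1 was left out of the search, so nothing is said of its promoter. The full palindrome, AGAACA, any 3 bases and TGTTCT, which reads the same on both strands, occurred in 1 of these windows, in Sgk1, and in 0.00913% of 32851 windows of all genes. The looser form, GNACA, any 3 bases and TGTNC, which contains the full palindrome as a special case, occurred in that window alone among the 13 and in 0.475% of all windows. The stretch before that Sgk1 start is shown because it holds this match, with the palindrome in capitals, and that of Fkbp5 because it was called in both tables and its only match among the motifs searched was an E-box, CACGTG, in capitals.
Sgk1: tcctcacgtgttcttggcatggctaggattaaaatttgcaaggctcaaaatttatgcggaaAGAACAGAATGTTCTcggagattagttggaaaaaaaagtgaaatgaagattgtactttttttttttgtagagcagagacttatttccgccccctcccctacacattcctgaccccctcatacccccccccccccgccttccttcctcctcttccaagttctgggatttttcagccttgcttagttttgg
Fkbp5: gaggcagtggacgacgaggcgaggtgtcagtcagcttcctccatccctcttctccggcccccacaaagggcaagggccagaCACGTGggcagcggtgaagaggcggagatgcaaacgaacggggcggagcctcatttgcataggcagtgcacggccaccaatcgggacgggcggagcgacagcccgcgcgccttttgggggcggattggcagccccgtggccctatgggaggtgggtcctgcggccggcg

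The Sgk1 stretch lies at chr10:21993640-21993889 (GRCm38.p6, plus strand). It overlaps 0 annotated exons of GENCODE M21, lies within the span of 5 longer Sgk1 transcripts as intron, and ends at the start of another. Its palindrome begins 189 bases before that start and 965 bases before the next start downstream. The Fkbp5 stretch lies at chr17:28486150-28486399 (minus strand), with its E-box beginning 169 bases before the start.

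The motifs were read on both strands. A single arm of the palindrome, AGAACA, which the full palindrome contains, was found in windows of Sgk1 and Tsc22d3 and in 19.0% of all windows, and the E-box CACGTG in windows of Fkbp5 and Sgk1 and in 7.15%. The forkhead motif GTAAACA was found in Hsd11b1 and Klf9 and in 3.65%, and the cyclic AMP element TGACGTCA in 0 of the 13 windows and in 1.79%. The other genes with the full palindrome in a window were Acnat2, with log2 changes of -0.12 (SE 1.11) and -0.04 (SE 1.12) in the authors' deposited tables, and Gm35041, which neither table lists. Of 47 tested genes with the looser form, 1 was called in each of the authors' deposited tables, the metallothionein gene Mt1. That is 2.13% of them, against 2.16% of 12175 genes with a window without and 0.595% of 12098 with tetracycline. These are matches of letters in a window, and no binding was measured.

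The wider pathway was read from 4 lists of 54 further genes. These lists were put together with earlier results of these data known, so their counts are a description and no independent evidence. The first holds 28 other genes known to respond to glucocorticoids, many of which also answer to other signals. Without tetracycline 6 of its 27 tested genes were called as higher, and 0 as lower, in the authors' deposited table, beside 1.06% of all tested genes called higher, with a median log2 change of 0.43 against 0.01 over all tested genes. With tetracycline 4 of 26 were called as higher, and 0 as lower, beside 0.333% of all tested genes called higher, with a median of 0.26 against -0.02. The genes called in both tables were Mt1, Mt2, Pdk4 and Angptl4, and Pck1 and Per1 were called without tetracycline alone.

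Mt2, like Mt1 a metallothionein gene whose protein binds zinc, changed most without tetracycline. It had 19121 and 25963 normalized counts in the fasted and 1713 and 2781 in the fed libraries without tetracycline, and 20092 and 12843 in the fasted and 2762 and 2232 in the fed libraries with it. The sides were far apart in both tables. In the authors' deposited tables Mt2 rose by 3.33 (SE 0.32, adjusted p 2.68e-22) and 2.72 (SE 0.42, adjusted p 1.96e-07) on the log2 scale, and Mt1 by 2.16 (SE 0.31, adjusted p 2.69e-09) and 2.15 (SE 0.37, adjusted p 8.81e-06).

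Angptl4 makes an inhibitor of lipoprotein lipase. It had 12573 and 9851 normalized counts in the fasted and 1622 and 3402 in the fed libraries without tetracycline, and 9049 and 36129 in the fasted and 1713 and 1909 in the fed libraries with it. Pdk4, whose kinase turns off the entry of pyruvate into the citrate cycle, had 12575 and 13634 against 1593 and 3825, and 11342 and 40913 against 3425 and 3596. Fasted library 2 with tetracycline was again the highest for both, as it was for Zbtb16 and Fkbp5. The log2 changes in the authors' deposited tables were 2.16 (SE 0.36, adjusted p 7.82e-07) and 3.64 (SE 0.64, adjusted p 1.38e-05) for Angptl4, and 2.27 (SE 0.38, adjusted p 7.82e-07) and 2.90 (SE 0.62, adjusted p 0.00111) for Pdk4.

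Per1, a repressor in the circadian clock, had 2829.9 and 2734 normalized counts in the fasted and 1102 and 1144 in the fed libraries without tetracycline, and 2524 and 2839.7 against 1609.6 and 1553 with it. Both fasted libraries were above both fed ones in each table. Its log2 changes were 1.31 (SE 0.25, adjusted p 4.82e-05) and 0.76 (SE 0.36, adjusted p 0.860) in the authors' deposited tables. Pck1, the gluconeogenic enzyme gene and a textbook glucocorticoid target in liver, had log2 changes of 1.70 (SE 0.41, adjusted p 0.00289) and 2.32 (SE 0.78, adjusted p 0.254) in the authors' deposited tables. Not every inducible gene was higher in fasted mice: Dusp1, a phosphatase gene that dampens MAP kinases, had log2 changes of -1.16 (SE 0.48, adjusted p 0.268) and -0.34 (SE 0.55, adjusted p 0.9999) in the authors' deposited tables.

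**Figure D3:**
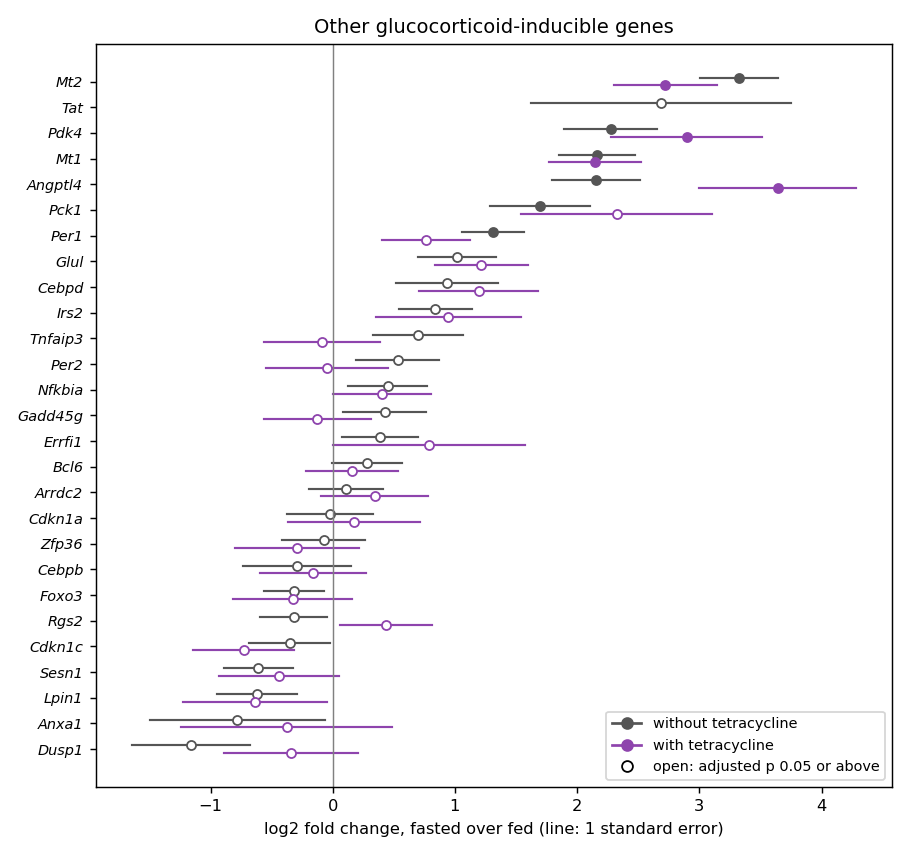
Log2 fold change of fasted over fed mice for the tested genes of the list of other glucocorticoid-inducible genes in the authors' deposited tables, without (grey) and with (purple) tetracycline; lines are 1 standard error, filled points are called. Mt2, Pdk4, Mt1 and Angptl4 are filled in both, and 17 of 27 genes without and 15 of 26 with tetracycline lie above 0.

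Of the receptor's chaperones and cofactors 0 of 10 genes were called in either of the authors' deposited tables, where 2.27% and 0.600% of all tested genes were, so a list this short says little; they had median log2 changes of 0.16 and -0.14. Fkbp4, the counterpart of Fkbp5 that favours receptor transport to the nucleus, had log2 changes of -0.62 (SE 0.25, adjusted p 0.243) and -0.31 (SE 0.40, adjusted p 0.9999). Hsp90aa1, a subunit gene of the chaperone that holds the receptor ready for hormone, had -0.66 (SE 0.27, adjusted p 0.265) and -0.73 (SE 0.44, adjusted p 0.9999). Of the mineralocorticoid receptor and the genes of epithelial sodium transport, 0 of 6 tested were called in either of the authors' deposited tables. The receptor gene Nr3c2 itself, whose protein binds the same hormones where Hsd11b2 does not remove them, had log2 changes of -0.16 (SE 0.34, adjusted p 0.954) and -0.80 (SE 0.44, adjusted p 0.9985).

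In the list of local steroid synthesis and its regulators, 1 of 7 tested genes without and 0 of 6 with tetracycline were called, beside 2.27% and 0.600% of all tested genes. That gene was H6pd, whose enzyme supplies the reduced cofactor that the type 1 dehydrogenase uses. It had 3434 and 2587 normalized counts in the fasted and 1076 and 1142 in the fed libraries without tetracycline, and 2095 and 2380.2 in the fasted and 1101 and 1112 in the fed libraries with it. Both fasted libraries were above both fed ones in each table, while transcript of its partner Hsd11b1 was lower or overlapping. In the authors' deposited tables H6pd had log2 changes of 1.44 (SE 0.28, adjusted p 3.96e-05) and 1.02 (SE 0.36, adjusted p 0.354). Cyp11a1, the first enzyme of steroid synthesis, had an authors' mean of 10.3 normalized counts without and 6.42 with tetracycline.

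**Figure D4:**
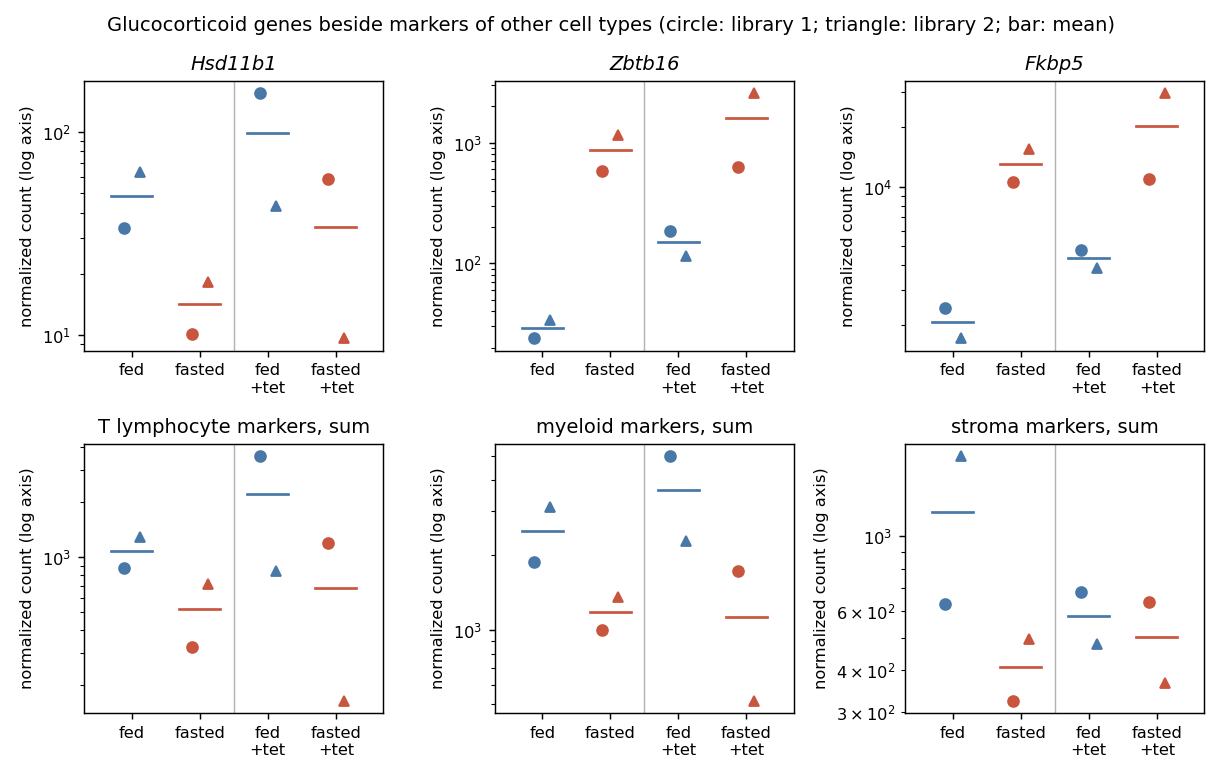
Normalized count (log axis) of Hsd11b1, Zbtb16 and Fkbp5 above the summed markers of T lymphocytes, myeloid cells and stroma in the 8 libraries, in fed (blue) and fasted (red) mice without and with tetracycline (+tet); circles are library 1, triangles library 2, bars the mean of 2 libraries. Hsd11b1 is lowest (9.63) in the fasted library with the lowest T lymphocyte sum (164), where Zbtb16 and Fkbp5 are highest.

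The genes most like Zbtb16 were sought among 12492 genes with a symbol, a mean of at least 50 and an adjusted p in both tables, by the distance between their pairs of log2 changes, over 2 comparisons. The nearest were Reg3b, Mbl2, Cyp4a10, Acot1 and Eif4ebp3, at distances of 0.55, 0.84, 0.89, 1.08 and 1.19. Reg3b makes an antibacterial lectin, Mbl2 a mannose-binding lectin, Cyp4a10 a fatty acid hydroxylase, Acot1 an acyl-CoA thioesterase and Eif4ebp3 a repressor of cap-dependent translation. The SEs of the log2 changes of Zbtb16 and these 5 genes ran from 0.28 to 1.15, so their order is uncertain. Mbl2 was not called with tetracycline (DESeq2 adjusted p 0.284). No gene lay within 0.5 of Zbtb16, whereas 5643 genes lay within 0.5 of Nr3c1. That contrast follows from where the 2 genes lie: Nr3c1 is near 0, where many genes are, and Zbtb16 belongs to a set chosen for its fasting changes. The 5 nearest to Nr3c1 were Cep135, Ncbp3, Zmynd8, Platr25 and Tmem131l, at distances of 0.01 to 0.02.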

How the data were processed

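RNA was sequenced from crypts of 4 labelled groups with 1 sample each. Per the submitters' processing notes, Salmon, DESeq2 and the build mm10 were used, with no roles or versions. The deposited tables have the columns of DESeq2 results, per the file headers. The authors' mean is a signal: counts divided by size factors and averaged over libraries. The authors' fold change and standard error are log2 values. The authors' statistic is a score, namely the quotient of those log2 values. The authors' deposited p-values carry a Benjamini-Hochberg adjustment. The count import and annotation release are not given in the sources used here. Of the identifiers, 99.3% matched GENCODE M21 without version, and 99.9% of those carried a higher version, so exon lengths are approximate.

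Counts per library were recovered from the means in Python 3.11.15 with NumPy 2.4.6, SciPy 1.17.1 and pandas 2.3.3. Whole counts had to give the deposited mean and, in a negative binomial fit of both sides, the deposited fold change within 1e-05. Of a systematic sample of genes with a mean of 20 to 200, 99.5% of 421 without and 98.6% of 429 with tetracycline gave 1 set. For the lists, counts were sought up to a mean of 3000, and further up for called pathway genes. They were not recovered for every gene: Cd79a with tetracycline, and Pck1 and Hba-a1, have none. If the counts were Salmon estimates, they had been made whole before scaling. The recovered values are shown per library and not tested. Levels across tables used rebuilt group means with a pseudocount of 1.

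The members and lists were chosen with earlier results of these data known. Named are all members, list genes called in both tables, the 2 largest changes per list among called genes, and the 5 genes nearest to Zbtb16 and to Nr3c1. Pck1, Per1, Dusp1, Fkbp4, Hsp90aa1, Nr3c2 and Cyp11a1 were named after their values were seen. The scripts were tested on simulated data. Alternatives changed the threshold, the genes adjusted over, the pseudocount, the centring and the libraries.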

Additional observations from a re-analysis of the deposited data

How the results depend on the processing

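At an adjusted p under 0.01 in the authors' deposited tables, 246 genes in place of 411 were called without and 68 in place of 108 with tetracycline. The Wald test of the difference called 32 genes in place of 4 after scaling by the statistic's robust SD, 0.714, and 1 when means had to reach 50; the cause was not tested. The other 48 alternatives for counts stayed within 1.5 times. Among alternatives for single members other than leaving out a library, 231 kept their call or, where untested, moved by less than the spread between libraries. Of these, fed levels with against without tetracycline close to 0 changed sign: Tsc22d3 from -0.02 to 0.04 and Klf9 from -0.03 to 0.03 without centring, and 0.02 and 0.01 when centred on genes whose mean reached 50, and Ddit4 from -0.05 to 0.0064 without centring. Fkbp5 with tetracycline (DESeq2 adjusted p 0.0147) was not called at 0.01, and Sgk1 without it (adjusted p 0.0798) was called at 0.1. None reversed a called direction. Leaving out 1 library moved 9 of the members' log2 ratios by more than the spread. Without tetracycline these were Zbtb16 (4.32 to 5.31) and Hsd11b2 (0.12 to 0.81). With tetracycline the ranges were 2.07 to 4.09 for Zbtb16, 1.33 to 2.77 for Fkbp5, 0.06 to 2.70 for Sgk1, 0.18 to 1.61 for Tsc22d3, -0.36 to 0.31 for Klf9, 1.75 to 1.89 for Ddit4 and -3.36 to -0.34 for Hsd11b1. Counts of called genes could not be refitted without a library. No paired analysis was possible because the labels give 1 sample a group and no replicate numbers. With 2 libraries a side, the median standard error over genes was 0.336 without and 0.492 with tetracycline on the log2 scale, and counts as low as 7 limit Hsd11b1.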
